A study of Macaca mulatta with 6 samples.

Results

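The genes described here belong to 7 solute carrier (SLC) families of amino acid carriers, SLC1, SLC3, SLC6, SLC7, SLC36, SLC38 and SLC43. Some genes of these families carry other substrates, such as SLC43A3, SLC6A4 and SLC6A8, and are counted among the carriers here. Members were found by symbol, as every row of the count table whose symbol is one of these family names followed by a member number. The set was chosen with earlier results of these data known. SLC7A11 was set aside by the rule, and SLC7A6OS, a neighbour of SLC7A6 that shares its letters but is no carrier of the family, was not taken. This gave 54 genes of 32386 rows, 17 in SLC6, 11 in SLC38, 10 in SLC7, 7 in SLC1, 4 in SLC36, 3 in SLC43 and 2 in SLC3. SLC7A5, SLC7A4, SLC7A12, SLC6A12 and SLC6A13 were not matched to a row and are not analysed here.

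RNA was measured in 6 single colonies of rhesus macaque granulocyte-macrophage progenitors (CFU-GM), each grown for 14 days in semi-solid medium from a CD34+ marrow cell. The marrow was taken 15 months after an autologous transplant of mobilized CD34+ cells that had been treated with CRISPR/Cas9, so wild-type and mutant colonies alike descend from treated grafts. Each colony was genotyped from its DNA: 3 were labelled wild type (WT), and 3 were labelled TET2 uniallelic or TET2+/- (UA), with a loss-of-function mutation predicted on one allele. TET2 encodes an enzyme that oxidizes methylated cytosine in DNA and is often mutated in clonal hematopoiesis. The labels give neither the number of animals nor any sign that colonies were independent beyond being separate samples. The p-values therefore set the difference between WT and UA only against the spread among these libraries within a group. Some of that spread may be technical.

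Amino acids cross membranes only through carriers, and each carrier has its own substrates and driving force. Some use the sodium or proton gradient to concentrate amino acids, some exchange one amino acid for another, and some let them pass down their gradient. The CD98 heavy chain brings a set of light chains to the cell surface, where the pair works as an exchanger. Other carriers sit on lysosomes, where the supply of amino acids is sensed by the growth-regulating kinase complex mTORC1. Dividing blood progenitors and activated leukocytes are known for high uptake of glutamine, leucine and arginine.

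Libraries held 10574104 to 25485143 counts in WT and 6334264 to 17684447 in UA. The share of rows with a count was 47.0% to 51.9% in WT libraries and 57.8% to 64.9% in UA libraries. UA replicate 3, the shallowest library, thus had a count in more rows than WT replicate 1, the deepest. Levels are CPM, the counts of a gene per 1e6 counts of its library, scaled by TMM factors except where a threshold of 1 CPM on library totals is named. TET2 itself had 93.8 ± 14.9 CPM in WT and 231 ± 6.65 in UA (SD, n = 3 each), which does not check the labels, since these counts do not separate the alleles. The 3 UA libraries resembled each other more than the WT ones did: 33.7% to 37.97% of genes differed between 2 UA libraries beyond counting noise, where 5% would from counting alone, against 55.1% to 74.2% between 2 WT libraries. Whether they are 3 colonies of similar state or 1 RNA source was not tested, so counts of calls are also given with the UA libraries summed to 1 sample. WT replicate 1 stood furthest from the other WT libraries.

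Markers of the labelled cell type were present in both groups. As a base for the counts below, 34.6% of all genes tested rose in UA and 31.4% fell. Of 12 granulocyte and monocyte markers, 8 rose in UA and 3 fell, and their summed level was 2959 to 3448 CPM in WT and 32169 to 33137 in UA. Markers of other cells moved with the labels too, as far as the lists show. Megakaryocyte markers rose in 8 of 12 and fell in 1 (445 to 495 CPM in WT, 918 to 931 in UA). B and plasma cell markers rose in 8 of 8 (57.7 to 62.1 against 887 to 903 CPM). Stromal markers rose in 8 of 10 and fell in 2 (125 to 143 against 938 to 969.8 CPM), and endothelial ones rose in 9 of 11 and fell in 1 (334 to 364 against 487 to 526 CPM), with MMRN2 at 0 counts in WT. Macrophage markers rose in 6 of 8 (53.3 to 82.6 against 307 to 333 CPM), and of 7 mast cell and eosinophil markers 5 rose and 1 fell (198 to 225 against 1501 to 1618 CPM), with IL5RA at 0 counts in WT. Of 7 erythroid markers 3 rose and 3 fell (286 to 364 against 96.8 to 111 CPM). Dendritic cell markers rose in 2 of 7 and fell in 4 (369 to 429 against 395 to 405 CPM). That dendritic sum joins opposite changes. FLT3 rose from a mean of 53.7 to 267 CPM and FCER1A from 9.80 to 53.1. CD207 fell from 82.4 to 0.0542 CPM, CD1B from 84.7 to 2.78, BATF3 from 83.0 to 3.63 and CLEC10A from 9.27 to 2.65. Of 3 T and NK cell markers tested, 1 rose and 2 fell (128 to 183 against 28.8 to 37.8 CPM), with CD3E, CD8A and KLRD1 at 0 counts in WT. The part of these markers in the carrier results was not tested, and in such bulk samples fewer cells of a type and less RNA per cell cannot be told apart.

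More carriers were higher than lower in UA. On library totals, 31 of the 54 had a mean of at least 1 CPM in either group, 24 of them in WT and 30 in UA. Of all rows, 44.1% reached that level. The members nearest the threshold were SLC6A17 (1.03 CPM in UA) and SLC6A19 (1.08) just above it, and SLC6A16 (0.993) and SLC6A7 (0.760 in WT) just below. In the test, 31 members passed the filter on low counts, of which 19 rose in UA, 5 fell and 7 were not called (edgeR quasi-likelihood test, adjusted p under 0.05). Over all 13768 genes tested, 66.0% were called, 34.6% higher and 31.4% lower. With a log2 fold change of at least 1 in size as well, 16 members rose and 4 fell, beside 48.8% of all genes tested (27.4% higher and 21.4% lower). The median log2 fold change of the tested members was 1.28, beside 0.12 over all genes tested.

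The low members entered the test by their UA counts. All 7 tested members with a WT mean under 1 CPM passed the filter through UA, and all 7 were called higher. Among the 23 members at 1 CPM or more in both groups, 12 rose, 5 fell and 6 were not called, and their median was 0.46. Over the 11982 genes at that level, 30.7% rose and 34.7% fell, with a median of -0.04. With the 3 UA libraries summed, 11 members were called higher and 4 lower, where 21.4% and 17.5% of all genes tested were. Without WT replicate 1, 33 members were tested, of which 20 rose and 5 fell. Over all 14367 genes tested in that fit, 5371 rose and 4578 fell. The 9 calls lost with the UA libraries summed were those of SLC3A2, SLC7A1, SLC1A2, SLC1A4, SLC38A1, SLC43A1, SLC6A8, SLC6A16 and SLC6A20.

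**Figure D1:**
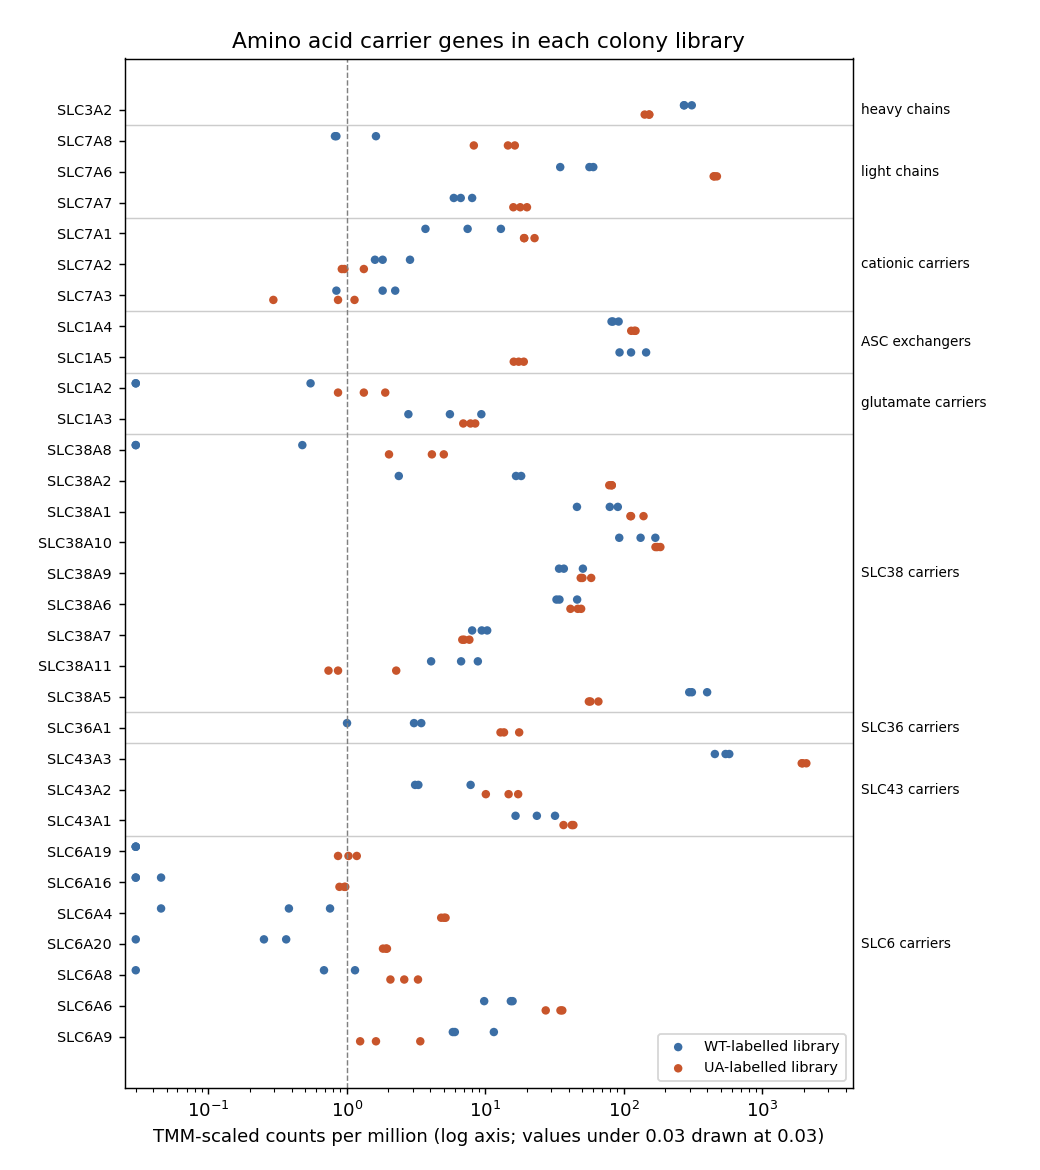
TMM-scaled CPM (log axis) of the 31 tested carrier genes in each of the 3 WT-labelled (blue) and 3 UA-labelled (orange) libraries, one point per library, grouped by role; values under 0.03 are drawn at 0.03 and the dashed line marks 1 CPM. In SLC7A6 the UA points lie at 446 to 470.1 and the WT points at 34.8 to 60.2, whereas in SLC1A5 and SLC38A5 the UA points lie below all WT points.

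The CD98 heavy chain fell, as did its partner SLC7A11 outside the chosen set, while the 3 light chains of the set that could be tested rose. SLC3A2 (chromosome 14, 11412536 to 11444964) encodes the CD98 heavy chain, which carries SLC7A6, SLC7A7, SLC7A8 and the cystine exchanger SLC7A11 to the surface. It had 309.6, 273 and 272 CPM in WT replicates 1 to 3 and 153, 142 and 152 CPM in UA replicates 1 to 3. Every UA library lay below every WT library, at -0.94 on the log2 scale (SE 0.14, edgeR adjusted p = 0.000152). With the UA libraries summed the change was -0.91 and missed the threshold (edgeR adjusted p = 0.0506). The other heavy chain, SLC3A1, the partner of SLC7A9 in kidney and gut, had no count in WT and 6 counts in UA.

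The 3 tested light chains of the chosen set, SLC7A6, SLC7A7 and SLC7A8, were all called higher, beside 34.6% of all genes tested. SLC7A6 encodes y+LAT2, which exchanges cationic for neutral amino acids and sodium. Its levels were 34.8, 60.2 and 56.5 CPM in WT and 446, 470.1 and 451 CPM in UA. The UA libraries were all above the WT ones, and their spread was small beside the gap (log2 fold change 3.18, SE 0.21, edgeR adjusted p = 9.12e-07). SLC7A6 overlaps SLC7A6OS in RefSeq's T2T-MMU8v2.0 assembly, and the library kit marks no strand, so reads in the overlap cannot be assigned to one of them. SLC7A6OS itself was low in both groups, at 6.89 ± 1.40 CPM in WT and 5.09 ± 0.361 in UA (SD, n = 3 each), and was not called (log2 fold change -0.44, edgeR adjusted p = 0.235).

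SLC7A8 (chromosome 7, 84472065 to 84532803) encodes LAT2, an exchanger of neutral amino acids. WT replicates 1 to 3 held 0.822, 1.63 and 0.842 CPM of it and UA replicates 14.6, 16.3 and 8.27 CPM. UA replicate 3 was the lowest of its group and still above every WT library (log2 fold change 3.62, SE 0.42, edgeR adjusted p = 2.85e-05). SLC7A7 (chromosome 7, 84099875 to 84144001) encodes y+LAT1, the arginine and lysine exchanger of macrophages and epithelia that is mutated in lysinuric protein intolerance. It had 8.04, 5.93 and 6.65 CPM in WT and 19.999, 17.9 and 15.9 CPM in UA, with no overlap (log2 fold change 1.38, SE 0.25, edgeR adjusted p = 0.000517). Macrophage markers rose in the same libraries, as given above, and their part in this result was not tested.

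SLC7A11, the CD98 partner outside the chosen set, fell with the heavy chain. It is the light chain of the cystine and glutamate exchanger, and its mean was 36.95 ± 1.04 CPM in WT and 4.13 ± 1.21 in UA (SD, n = 3 each). The change was -3.13 on the log2 scale (SE 0.26, edgeR adjusted p = 2.88e-06). The remaining light chains matched to a row were SLC7A9, SLC7A10 and SLC7A13. They were too low to test, with 19, 2 and 1 counts in UA and 11, 0 and 0 in WT. SLC7A5 was not matched to a row, so it is missing from this comparison of heavy and light chains.

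**Figure D2:**
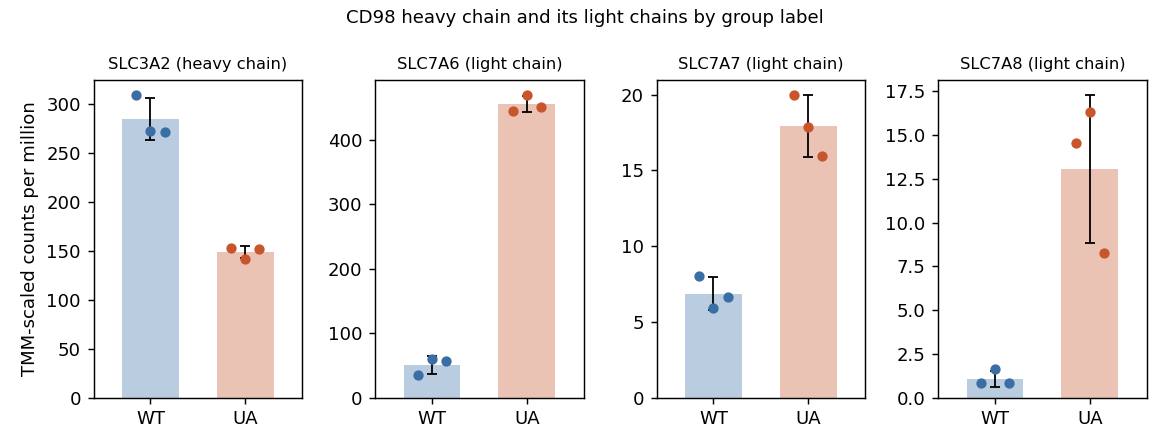
TMM-scaled CPM of the CD98 heavy chain gene SLC3A2 and of the light chain genes SLC7A6, SLC7A7 and SLC7A8 by group label; bars are means, error bars 1 SD (n = 3), points single libraries, and each panel has its own axis from 0. The heavy chain falls from 285 to 149 CPM while these 3 light chains rise from 50.5 to 456, 6.87 to 17.9 and 1.10 to 13.1 CPM.

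Of the cationic carriers, which bring arginine, lysine and ornithine into the cell, 1 of 3 tested rose (34.6% of all genes tested). SLC7A1 (chromosome 17, 8860676 to 8940387) encodes CAT1, the widely expressed arginine carrier. It had 3.70, 7.46 and 13.0 CPM in WT and 19.1, 22.7 and 19.1 CPM in UA. The WT libraries spread more than 3 times from lowest to highest, and all lay below the UA ones (log2 fold change 1.35, SE 0.38, edgeR adjusted p = 0.00944). With the UA libraries summed the change was 1.36 and not called (edgeR adjusted p = 0.0677). SLC7A2, the CAT2 carrier of activated macrophages, had 2.09 ± 0.676 CPM in WT and 1.07 ± 0.225 in UA (SD, n = 3 each) and was not called (log2 fold change -0.98, SE 0.58, edgeR adjusted p = 0.156). SLC7A3 had 1.63 and 0.766 CPM and was not called (log2 fold change -1.02, SE 0.68, edgeR adjusted p = 0.208). SLC7A14 had 3 counts in UA and none in WT.

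The 2 exchangers of alanine, serine and cysteine differed in sign. SLC1A5 (chromosome 19, 42105474 to 42123468) encodes ASCT2, which takes up glutamine in exchange for other small neutral amino acids. It had 93.2, 113 and 145 CPM in WT and 19.0, 16.1 and 17.4 CPM in UA. This was the deepest fall among the tested members, at -2.74 on the log2 scale (SE 0.21, edgeR adjusted p = 1.84e-06). SLC1A4, which encodes ASCT1, was higher in UA, at 85.6 ± 5.42 CPM in WT and 118 ± 4.31 in UA (SD, n = 3 each), which is 0.46 on the log2 scale (SE 0.15, edgeR adjusted p = 0.0165). That call was lost without UA replicate 1, 2 or 3 (edgeR adjusted p = 0.053, 0.0656 and 0.0737) and with the UA libraries summed (0.286).

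Of the high-affinity glutamate carriers, best known from brain, 2 of 5 could be tested and 1 was called (66.0% of all genes tested). SLC1A3, which encodes EAAT1, had 5.90 ± 3.31 CPM in WT and 7.74 ± 0.766 in UA (SD, n = 3 each) and was not called (log2 fold change 0.41, edgeR adjusted p = 0.404). SLC1A2, which encodes EAAT2, had 12 counts in WT replicate 1 and none in the other WT libraries, against 35, 9 and 9 in UA. Its log2 fold change of 2.56 (edgeR adjusted p = 0.0457) rose to 7.02 without WT replicate 1, where WT held no count. It was not called without WT replicate 2 or 3 (edgeR adjusted p = 0.107 and 0.103), without UA replicate 2 or 3 (0.0759 and 0.0969) or with the UA libraries summed (0.206). SLC1A1, SLC1A6 and SLC1A7 had no count in WT and 8, 7 and 1 counts in UA.

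Among the SLC38 carriers, which couple small neutral amino acids to sodium, 3 of 9 tested members rose, 2 fell and 4 were not called. The shares over all genes tested were 34.6% higher and 31.4% lower. SLC38A2 (chromosome 11, 44509721 to 44593441) encodes SNAT2, a system A carrier whose transcript is known to be induced when amino acids run short. It had 2.38, 18.2 and 16.7 CPM in WT and 81.9, 81.8 and 78.6 CPM in UA. WT replicate 1 was far below the other WT libraries, and all 3 were below the UA libraries (log2 fold change 2.74, SE 0.54, edgeR adjusted p = 0.00102). SLC38A1 (chromosome 11, 44347668 to 44399112), its direct neighbour in the T2T-MMU8v2.0 assembly, encodes SNAT1, a glutamine carrier. It had 45.9, 90.5 and 79.2 CPM in WT and 113, 139 and 112 CPM in UA. The groups did not overlap, and the change was smaller than that of SLC38A2 (log2 fold change 0.76, SE 0.24, edgeR adjusted p = 0.0155). It was not called without UA replicate 2 (0.65, edgeR adjusted p = 0.0755) or with the UA libraries summed (0.76, edgeR adjusted p = 0.13). The next gene of that cluster, SLC38A4, had no count in WT and 28 in UA, of which 23 lay in UA replicate 1.

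SLC38A5 (chromosome X, 48672379 to 48682358) encodes SNAT5, which moves glutamine, asparagine, histidine and serine and is known from erythroid cells. It had 399.6, 310.2 and 297 CPM in WT and 65.6, 56.0 and 57.4 CPM in UA. All UA libraries lay below all WT libraries, at -2.49 on the log2 scale (SE 0.17, edgeR adjusted p = 1.06e-06). The summed erythroid markers were also lower in UA, as given above. RHAG made up most of that sum in WT and fell from 214 to 12.9 CPM. Of 7 erythroid markers tested, 3 rose and 3 fell, and their part in this result was not tested. SLC38A11 (chromosome 12, 51757570 to 51816280), a member without a settled substrate, had 4.07, 6.69 and 8.84 CPM in WT and 2.28, 0.865 and 0.738 CPM in UA. The change was -2.23 on the log2 scale (SE 0.53, edgeR adjusted p = 0.00345) and -2.99 without UA replicate 1, the highest of its group.

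The SLC38 members of lysosomes were not called. SLC38A9 (chromosome 6, 56552439 to 56626072) encodes the lysosomal arginine sensor that signals to mTORC1. It had 36.9, 50.7 and 34.1 CPM in WT and 50.3, 58.2 and 48.9 CPM in UA, and the groups overlapped (log2 fold change 0.37, SE 0.20, edgeR adjusted p = 0.12). It was called without WT replicate 2, the highest WT library, at 0.55 (edgeR adjusted p = 0.0261). SLC38A7, which releases glutamine and asparagine from lysosomes, had 9.27 ± 1.15 CPM in WT and 7.18 ± 0.443 in UA (SD, n = 3 each), and a log2 fold change of -0.37 (edgeR adjusted p = 0.252).

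SLC38A10 had 131 ± 38.1 CPM in WT and 176 ± 7.24 in UA, and SLC38A6 had 37.7 ± 7.29 and 45.7 ± 4.08 (SD, n = 3 each). Both were not called, with log2 fold changes of 0.42 and 0.28 (edgeR adjusted p = 0.0884 and 0.234). SLC38A10 was called without WT replicate 3 (0.64, edgeR adjusted p = 0.0172) and SLC38A6 without WT replicate 1 (0.46, edgeR adjusted p = 0.0114). SLC38A8 rose from 0.159 ± 0.276 to 3.72 ± 1.54 CPM (SD, n = 3 each), with all 5 of its WT counts in replicate 2. Its log2 fold change of 4.76 (edgeR adjusted p = 0.00259) was 8.68 without that library, where WT held no count, and 3.96 without WT replicate 1. SLC38A3 had 1 count in UA and none in WT.

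**Figure D3:**
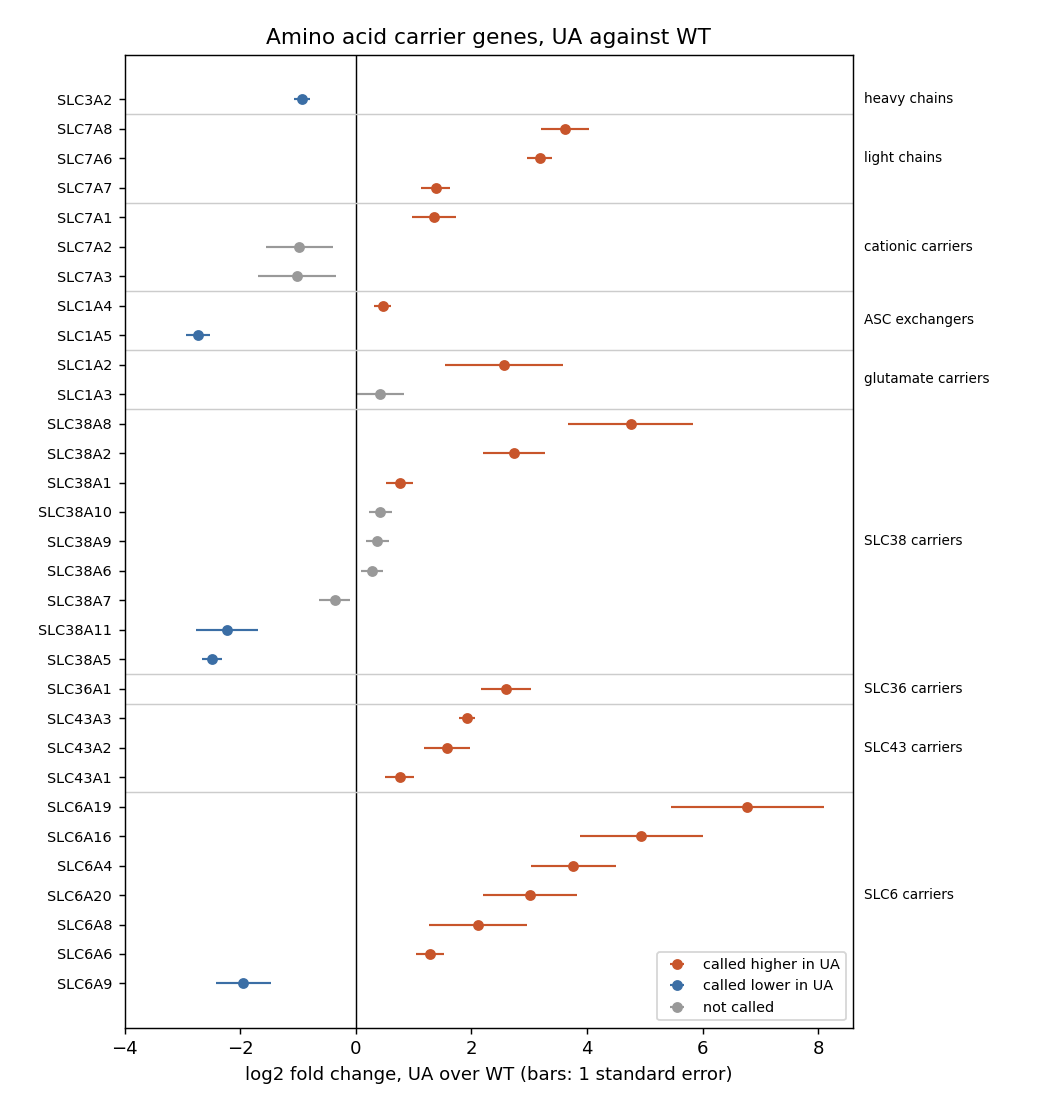
Log2 fold change of UA over WT for the 31 tested carrier genes, grouped by role; bars are 1 standard error, orange points were called higher in UA, blue points lower and grey points not called (edgeR adjusted p under 0.05). SLC7A6, SLC7A7, SLC7A8 and the SLC43 carriers lie to the right of 0, while SLC3A2, SLC1A5, SLC38A5, SLC38A11 and SLC6A9 lie to the left and are called.

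The SLC36 carriers move small amino acids together with protons, and 1 of the 4 could be tested. SLC36A1 (chromosome 6, 149560855 to 149604465) encodes PAT1, which exports small amino acids from lysosomes and has been linked to mTORC1. It had 1.01, 3.06 and 3.45 CPM in WT and 13.7, 12.9 and 17.6 CPM in UA. Each UA library was above each WT library (log2 fold change 2.59, SE 0.43, edgeR adjusted p = 0.000325). Its neighbours in the T2T-MMU8v2.0 assembly, SLC36A2 and SLC36A3, were near 0, with 2 and 0 counts in WT and 20 and 12 in UA. For SLC36A2 the ratio of UA to WT was 12.4, with a 95% exact counting interval of 3.02 to 109.5. SLC36A4 had no count in any library.

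All 3 SLC43 carriers rose, as did 34.6% of all genes tested. SLC43A3 (chromosome 14, 16222987 to 16262937) is in the family by sequence but is known as a carrier of purine nucleobases rather than of amino acids. It had 454, 543 and 577 CPM in WT and 2079, 1925 and 1956 CPM in UA, a change of 1.92 on the log2 scale (SE 0.14, edgeR adjusted p = 1.63e-06). This one gene made up most of the summed CPM of the 54 members in UA: the sum was 1789 ± 89.5 CPM in WT and 3459 ± 86.7 in UA, and without SLC43A3 it was 1264 ± 27.1 and 1472 ± 25.3 (SD, n = 3 each).

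SLC43A2 (chromosome 16, 1463383 to 1521225) encodes LAT4, which lets branched-chain amino acids, phenylalanine and methionine pass down their gradient. It had 3.29, 7.84 and 3.12 CPM in WT and 14.7, 10.1 and 17.3 CPM in UA. WT replicate 2 and UA replicate 2 came closest to each other, without overlap (log2 fold change 1.58, SE 0.40, edgeR adjusted p = 0.00463). SLC43A1, which encodes the related LAT3 and lies 1 gene away from SLC43A3 in the T2T-MMU8v2.0 assembly, had 24.0 ± 7.68 CPM in WT and 40.7 ± 3.50 in UA (SD, n = 3 each). Its log2 fold change was 0.75 (edgeR adjusted p = 0.0182), and it was not called without UA replicate 1 or 3 (edgeR adjusted p = 0.0594 and 0.0623) or with the UA libraries summed (0.160).

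The SLC6 family carries neurotransmitters, taurine, creatine, betaine, glycine and other neutral amino acids with sodium and chloride. Of 7 tested members 6 rose and 1 fell, beside 34.6% and 31.4% of all genes tested. Among those that rose, SLC6A4, SLC6A8, SLC6A16, SLC6A19 and SLC6A20 had a WT mean under 1 CPM and entered the test by their UA counts. At 1 CPM or more in both groups were SLC6A6, which rose, and SLC6A9, which fell. SLC6A6 encodes TauT, the taurine carrier, and taurine is abundant in leukocytes. It had 9.82, 15.3 and 15.7 CPM in WT and 35.99, 34.9 and 27.3 CPM in UA, without overlap (log2 fold change 1.28, SE 0.24, edgeR adjusted p = 0.000873). SLC6A4 encodes the serotonin carrier, known from platelets and neurons. It had 0.0457, 0.382 and 0.758 CPM in WT and 5.04, 4.81 and 5.17 CPM in UA. All WT libraries were under 1 CPM, and the UA libraries were close to each other (log2 fold change 3.76, SE 0.74, edgeR adjusted p = 0.00104). Leaving out WT replicate 1 or 3 gave 3.10 or 4.79, both called. Megakaryocyte markers were higher in the same libraries, with PF4 at 0.609 CPM in WT and 203.5 in UA, and their part in this result was not tested.

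The member that fell was SLC6A9 (chromosome 1, 43495354 to 43537108), which encodes GlyT1, the glycine carrier that supplies haem synthesis in erythroid cells. It had 6.03, 5.83 and 11.5 CPM in WT and 1.63, 1.25 and 3.397 CPM in UA, and all UA libraries were below all WT ones (log2 fold change -1.95, SE 0.48, edgeR adjusted p = 0.00414). RHAG, an erythroid membrane gene, fell in the same libraries, from 214 to 12.9 CPM, while of 7 erythroid markers tested 3 rose and 3 fell. The part of erythroid markers in this result was not tested either.

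The other 4 SLC6 members that were called were at or under about 3 CPM in UA. SLC6A8, the creatine carrier, had 0.611 ± 0.577 CPM in WT and 2.65 ± 0.602 in UA (SD, n = 3 each, log2 fold change 2.11, edgeR adjusted p = 0.0478). It was not called without any one of UA replicates 1 to 3 (edgeR adjusted p = 0.114, 0.155 and 0.0871) or with the UA libraries summed (0.241), and its change was 2.75 without WT replicate 2. SLC6A20, a proline carrier, had 0.206 ± 0.187 and 1.90 ± 0.0646 CPM (log2 fold change 3.01, edgeR adjusted p = 0.00713), 3.75 without WT replicate 1, and was not called with the UA libraries summed (edgeR adjusted p = 0.115). SLC6A16, which has no settled substrate, had a single WT count, in replicate 1, and 34 in UA, 42.2 times the WT level with a 95% exact counting interval of 7.08 to 1716. Its fitted log2 fold change was 4.94 and, without that library, 6.47. It was not called with the UA libraries summed (edgeR adjusted p = 0.0668). SLC6A19, the neutral amino acid carrier of gut and kidney, had no count in WT and 36 in UA. Taking 3 counts summed over the WT libraries as the floor, it was at least 14.9-fold higher in UA.

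Beyond these, 23 members were not tested, and their counts were few. Over all 54 members, 17 had counts in UA and none in WT (31.5%), against 17.9% of all rows. No member had counts in WT and none in UA, against 1.75% of all rows. Rows with no count in any library made up 26.3% of all rows and 3.70% of members, so these shares have unlike bases. Where a library held no count, levels of up to 0.118 CPM (deepest library) or 0.474 CPM (shallowest) were possible from counting error alone. Counts in all 3 UA libraries and none in WT were seen for 7 members, among them SLC6A2, SLC6A5, SLC36A3 and SLC38A4. The noradrenaline carrier SLC6A2 and the glycine carrier SLC6A5 had 7 and 8 counts in UA. SLC6A3, the dopamine carrier, had 9 counts in UA replicate 1 alone, and SLC6A18 had 3 in UA replicate 3 alone. SLC6A14, whose row the other source of names calls CT83, had 2 counts. SLC6A15 had a single WT count and 20 in UA, 24.8 times the WT level (3.97 to 1029). SLC6A17 had 4 counts in WT and 31 in UA, and SLC6A7 had 30 in WT, 25 of them in replicate 3, and 16 in UA. SLC6A11 and SLC36A4 had no count in any library.

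The spread between libraries was larger in WT for most members. For the 23 members at 1 CPM or more in both groups, the median coefficient of variation was 29.0% in WT and 9.54% in UA, beside 23.5% and 9.62% over all genes at that level. WT replicate 1 was the lowest WT library for 14 of the 23 and the highest for 6. Over all genes at that level it was the lowest for 40.9% and the highest for 40.4%. Groups did not overlap for 27 of the 31 tested members, 20 with UA above WT and 7 with UA below. Of all genes tested, 73.2% did not overlap, 39.2% with UA above and 34.0% with UA below.

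Genes that use or sense the carried amino acids were counted beside the carriers. The shares over all genes tested were 34.6% higher and 31.4% lower with the UA libraries kept apart. Enzymes of amino acid synthesis and breakdown fell in 19 of 25 tested and rose in 3, and the list's median was -1.54 on the log2 scale (15 fell and 2 rose with the UA libraries summed). IL4I1, a secreted phenylalanine oxidase, fell from 30.3 to 0.255 CPM, and IDO1, which breaks down tryptophan, from 319 to 26.1 CPM. GPT2, an alanine transaminase, and PYCR1, of proline synthesis, had log2 fold changes of -2.93 and -2.31 (edgeR adjusted p = 2.31e-05 and 1.51e-05). ARG2, the mitochondrial arginase, fell from 315 to 70.9 CPM (log2 fold change -2.15, edgeR adjusted p = 3.1e-06). Each of these 5 was also called with the UA libraries summed.

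Genes of amino acid sensing by mTORC1 went both ways, with 10 of 31 tested higher, 11 lower and 10 not called, and a median log2 fold change of 0.17 (7 higher and 9 lower with the UA libraries summed). With the UA libraries kept apart, 34.6% of all genes tested were called higher and 31.4% lower, near the shares of this list. LAMTOR5 and LAMTOR4, subunits of the Ragulator complex that anchors mTORC1 to lysosomes, fell by 2.22 and 2.02 on the log2 scale. KPTN, of the KICSTOR complex, fell by 2.20. SESN3, of the sestrin family that includes a leucine sensor, rose by 2.37 on the same scale, and FNIP2, a partner of folliculin, by 2.15. These 5 had edgeR adjusted p of at most 0.000599.

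Other amino acid and peptide carriers outside the 7 families fell in 9 of 15 tested (31.4% of all genes) and rose in 3 (34.6%). SLC7A11 is included in this list. With the UA libraries summed 4 fell and 2 rose. SLC16A10, a carrier of aromatic amino acids, fell from 27.2 to 7.45 CPM, and SLC66A1, which exports cationic amino acids from lysosomes, from 27.8 to 8.91 CPM. SLC25A29, a mitochondrial carrier of basic amino acids, fell from 23.5 to 10.2 CPM. SLC17A9, known as the nucleotide carrier of vesicles, rose from 7.18 to 17.96 CPM (log2 fold change 1.34, edgeR adjusted p = 0.00425).

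**Figure D4:**
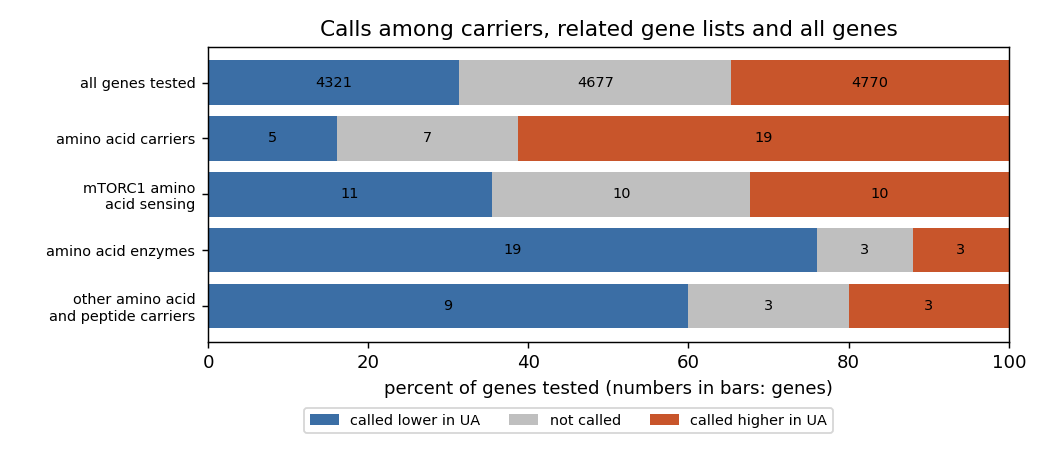
Share of tested genes called higher in UA (orange), lower in UA (blue) or not called (grey) among all genes, the amino acid carriers and 3 related gene lists, with the number of genes printed in each bar (edgeR adjusted p under 0.05). The carriers hold 19 higher and 5 lower of 31, the amino acid enzymes 3 higher and 19 lower of 25.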

How the data were processed

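The members and gene lists were chosen with earlier results of these data known. Libraries were made with SMART-Seq V4 and Nextera XT kits, per the labels' protocols, which mark neither strand nor molecule. Mmul_8.0.1 and bcl2fastq are named in the submitters' processing notes. No aligner or counter is given there or elsewhere in the sources used here. Raw counts per gene were deposited without normalization. The authors also deposited a table whose columns, per the file headers, include a mean of normalized counts (a signal) and a log2 fold change of a comparison that is not stated. That table's largest mean was 2181465, above the largest count here, 311736. In the authors' deposited table, 15 of 25 shared members had the sign opposite to UA over WT, so it served for symbols and coordinates only; it names no build.

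Symbols came from the row name for 3 members, the deposited table for 38 and a table of gene names for 13; 1 member was named differently by the 2 sources. For lists, the row with the highest total was used. Sequences were not used here. The values of 1 member are not reported here.

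Counts were tested with edgeR 4.0.16 (R 4.3.3), quasi-likelihood F-test with robust=TRUE, label as the only term, filterByExpr (minimum count 10, total 15), TMM factors of 0.860 to 1.07, and Benjamini-Hochberg adjustment over 13768 genes. The standard error is the log2 fold change over the square root of F. Depth was 6334264 to 25485143 counts; intervals and floors (3 counts) cover counting error only. The function was tested on simulated data. Alternatives were other scalings, filters and thresholds, DESeq2 1.42.0, limma-voom (limma 3.58.1), a replicate block, robust=FALSE, summed rows, summed UA libraries and leaving out each library. Deviations of same-numbered libraries from their group means were almost unrelated (r = 0.0129 to 0.0220). Those of differently numbered libraries were as weakly related, with the other sign (r = -0.0128 to -0.000345). Values in every library are given for called members with a log2 fold change of at least 1 in size and 5 CPM in either group, and for SLC3A2, SLC1A5, SLC38A1, SLC38A2, SLC38A9 and SLC36A1 whatever their result; from each pathway list up to 5 called genes of largest change at that level are named. SLC7A11 and SLC7A6OS were named for their place beside members.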

Additional observations from a re-analysis of the deposited data

How the results depend on the processing

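Across 17 other fits and an adjusted p under 0.01, 14 to 21 members were called higher (19 as reported) and 4 or 5 lower (5 as reported), except that 11 were called higher with the 3 UA libraries summed. The fits tested 22 to 52 members, so their counts have unlike denominators. With at least 5 CPM in 3 libraries, 14 of 22 members and 3989 of 11035 genes were higher. Without the low-count filter, 21 of 52 members and 5932 of 23872 genes were higher. Leaving out each library gave 14 to 20 higher and 5 lower of 31 to 33 tested, and 30 to 32 members at 1 CPM or more (31 as reported). Over all genes, leaving out a library gave 4133 to 5371 higher and 3764 to 4578 lower, of 14009 to 14535 tested. At least 1 CPM in every library was reached by 19 members. No tested member changed sign in any of these fits. Of the 24 called members, 15 kept their call in every fit that tested them and 9 lost it in at least 1. Those 9 were the ones lost with the UA libraries summed, and SLC1A2 and SLC6A8 were also lost with DESeq2 size factors (edgeR adjusted p = 0.0513 and 0.0511). With the replicate number as a block, 20 were higher and 5 lower, SLC38A10 being added (0.46, edgeR adjusted p = 0.0457). Over all 13768 genes tested with the block, 4765 were higher and 4174 lower. The replicate numbers share no stated source, and nothing was paired. Library size alone moved the median log2 fold change of all genes tested from 0.12 to 0.28 and called 20 members higher and 5 lower. Of all 13768 genes it called 5158 higher and 3772 lower. The search for promoter motifs was not run, since no promoter sequences were used here. Depth limits the members under 1 CPM, where a few counts set a fold change.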
